A study of Mus musculus with 4 samples.

Results

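The BCL2 family was followed through 10 genes in single-cell RNA-seq data of mouse germinal center (GC) B cells: the survival genes Bcl2, Bcl2l1, Mcl1, Bcl2a1a, Bcl2a1b and Bcl2a1d, and the death genes Bax, Bak1, Bcl2l11 and Bbc3. They were chosen by name, and the 10 are all present among the 32285 genes of both mRNA matrices. The question put to them was how their RNA differed across B-cell states, between cells with and without a BCL2 transgene taken from the same recipients, and between donor cells with and without DOCK8, an activator of small GTPases of the cytoskeleton.

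The cells were splenic B cells sorted as HEL+ CD95+ on day 8 after immunization with sheep red blood cells coupled to hen egg lysozyme (HEL), from CD45.1+ wild-type recipients of transferred MD4 B cells, whose transgenic antigen receptor binds HEL. The CD45.2+ cells carried BCL2.Tg, a human BCL2 cDNA expressed in B cells, and were Dock8 wt/wt in 3 recipients and Dock8 cpm/cpm, a DOCK8-null genotype, in the other 3. The CD45.1+ cells were Dock8 wt/wt without BCL2.Tg in all 6 recipients, and since the hosts were CD45.1+ too, that gate could also hold host cells. Mice of both sexes, 8 to 12 weeks of age, were used. Each sort gave 1 droplet library that held the cells of all 6 recipients, told apart by hashtag antibodies, so the transgene, the congenic origin and the library cannot be told apart in any comparison of the fractions.

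Apoptosis through mitochondria is set by binding between proteins of this family. BCL2, BCL-XL (Bcl2l1), MCL1 and A1 (the Bcl2a1 genes) hold the pore-forming effectors BAX and BAK in check, and the BH3-only proteins BIM (Bcl2l11) and PUMA (Bbc3) release them. GC B cells are known to keep endogenous BCL2 low and to depend on MCL1, whereas A1 is a target of the CD40 and NF-κB signals that B cells receive in the light zone (LZ), where they meet T cells after dividing in the dark zone (DZ).

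Of the 10 genes, 3 are near-identical copies whose reads a counter can confuse, and the start of their coding sequences is shown because it holds most of the positions at which they differ. The first 120 coding bases of each lie in 1 coding exon on chromosome 9 of GRCm38 (GENCODE M21 transcripts), and capitals mark the 7 positions in this stretch that are not the same in all 3.
Bcl2a1a, chr9:88957051-88957170, plus strand: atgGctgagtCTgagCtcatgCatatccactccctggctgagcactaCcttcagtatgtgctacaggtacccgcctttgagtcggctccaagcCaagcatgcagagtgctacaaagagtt
Bcl2a1b, chr9:89199360-89199479, plus strand: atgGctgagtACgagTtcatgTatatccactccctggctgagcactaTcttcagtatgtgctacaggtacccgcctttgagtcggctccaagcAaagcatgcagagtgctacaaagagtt
Bcl2a1d, chr9:88731600-88731719, minus strand: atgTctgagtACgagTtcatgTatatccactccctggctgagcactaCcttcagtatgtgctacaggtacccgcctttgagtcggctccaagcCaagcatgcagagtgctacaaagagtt

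Over the whole coding sequence of 516 bases, 12 positions differed among the 3 genes. Identity was 97.9% between Bcl2a1a and Bcl2a1b, 98.6% between Bcl2a1a and Bcl2a1d and 98.8% between Bcl2a1b and Bcl2a1d. The 3′ library reads the transcript's end, and in the last 300 bases 58.9% of the 60-base windows of Bcl2a1a, 68.9% of those of Bcl2a1b and 94.6% of those of Bcl2a1d were also found in another Bcl2a1 transcript. Bcl2a1d counts are therefore the least certain of the 3, and the planned comparisons were also run on the sum of the 3 genes. The fits added after the data were seen, single clusters among them, were not run on this sum.

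After filtering, 6488 CD45.2+ and 3204 CD45.1+ cells were assigned to 1 recipient. The Dock8 wt/wt recipients gave 1672 to 2607 CD45.2+ and 395 to 947 CD45.1+ cells each, whereas the recipients labelled Dock8 cpm/cpm gave only 44 to 101 CD45.2+ cells and 339 to 508 CD45.1+ cells. Unique molecular identifiers (UMIs) per recipient and fraction summed to between 342465 and 18036775, with medians per cell of 4235.5 to 7438, and 6 barcodes occurred among the kept cells of both libraries. Clusters built without these genes were named from the study's marker lists and joined into classes: early GC, activated and memory-like (E/A/M), LZ-like, DZ-like and plasma cell-like (PC). The study chose its marker lists on these libraries. A cluster of 210 cells with a median of 1807 UMIs kept no class name, and 109 cells formed a T cell-like cluster. Summed levels of 9 T cell markers lay between 19.9 and 62.5 counts per 1000000 UMIs (CPM), those of 7 myeloid markers between 18.9 and 91.8 CPM and those of 5 erythroid markers between 21.6 and 85.4 CPM, and NK cell markers reached at most 0.639 CPM, with 2 of 3 genes at 0. Dock8 RNA was 77.8 to 111 CPM in all 12 sums, which does not check the genotype, as the mutation is not a deletion.

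Sex-linked transcripts separated 1 set of cells from the rest. Xist, the RNA of the inactive X chromosome, was at 281 to 405 CPM in the CD45.2+ cells of the recipients labelled Dock8 cpm/cpm and at 1040 to 1516 CPM in the other 9 sums. The Y-linked gene Ddx3y was at 62.0 to 68.0 CPM in the former and at most 2.34 CPM in the latter. Within these CD45.2+ cells the proportions differed by class, with Xist at 385 to 747 CPM in DZ-like and 103 to 198 CPM in E/A/M cells, and 4 summed Y-linked genes at 44.0 to 128 and 210.1 to 264 CPM. Both kinds of transcript were thus present in the same sums, which the labels do not account for, and whether all cells assigned to the recipients labelled Dock8 cpm/cpm came from donors of that genotype was not tested. These transcripts moved with the Dock8 comparison of the CD45.2+ cells, and their part in its results was not tested.

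Of the CD45.1+ fraction, the PC-like cells stood apart in a way that touches Bcl2. A Bcl2 UMI was found in 30 of 77, 52 of 137 and 41 of 307 CD45.1+ PC-like cells of the Dock8 wt/wt recipients, which is 39.0% (exact 95% binomial interval 28.0 to 50.8), 38.0% (29.8 to 46.6) and 13.4% (9.76 to 17.7), intervals of counting error only. In the recipients labelled Dock8 cpm/cpm the shares were 7.89% (1.66 to 21.4), 8.70% (3.26 to 18.0) and 5.88% (1.63 to 14.4). Among CD45.2+ PC-like cells of the Dock8 wt/wt recipients it was 90.1 to 93.0%, and in CD45.1+ DZ-like cells, which have very little Bcl2, 2.74% on average.

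**Figure D1:**
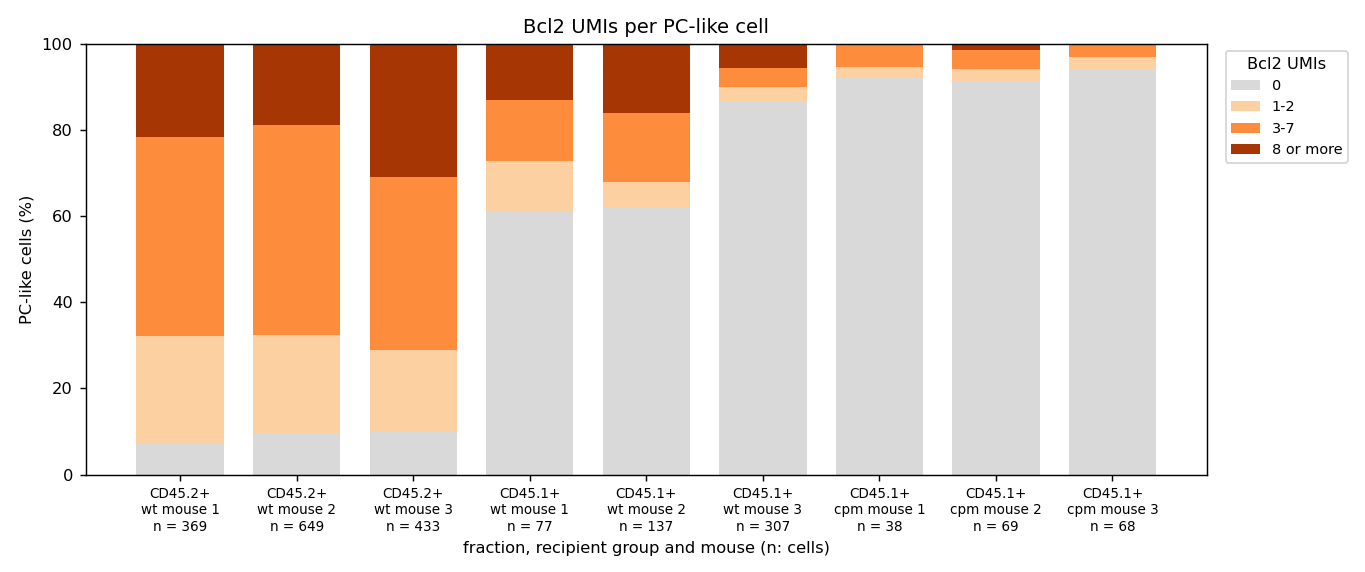
Share of PC-like cells (percent, y axis) of each recipient (x axis) by the number of Bcl2 UMIs in the cell (colours), for the CD45.2+ and the CD45.1+ fraction. Most CD45.1+ cells held no Bcl2 UMI, but in the Dock8 wt/wt recipients 5.54 to 16.1% of them held 8 or more.

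Cells with many Bcl2 UMIs were part of this: 10, 22 and 17 CD45.1+ PC-like cells of the Dock8 wt/wt recipients held 8 or more. In the recipients labelled Dock8 cpm/cpm, 7 of 175 CD45.1+ PC-like cells had a Y-linked UMI and no Xist UMI, as the CD45.2+ cells there often did. A Bcl2 UMI was present in 6 of these 7 and in 7 of the other 168. Whether transgenic cells or their RNA entered the CD45.1+ fraction was not tested further, and PC results are given with and without the CD45.1+ cells that held a Bcl2 UMI.

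Bcl2 RNA was higher in the CD45.2+ cells in every class. UMIs assigned to mouse Bcl2 in these cells cannot be told apart from molecules of the human BCL2 transgene, so the name Bcl2 stands here for both. On the log2 scale it was the largest difference of any of the 10 genes in the E/A/M, LZ-like and DZ-like classes, and its size on that scale differed by class. In CPM both fractions were lowest in DZ-like cells, at means of 89.0 and 3.98, and highest in PC-like cells, at 566 and 205.5. The order of the log2 differences is therefore not that of the gaps in CPM.

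In E/A/M cells of the Dock8 wt/wt recipients 1, 2 and 3, Bcl2 was at 229, 240 and 159 CPM in the CD45.2+ and 85.4, 51.2 and 67.1 CPM in the CD45.1+ cells. In LZ-like cells it was at 190, 191 and 153 CPM against 26.4, 12.9 and 18.5 CPM. In DZ-like cells it was at 100.1, 105 and 62.1 CPM against 4.96, 1.47 and 5.50 CPM, the latter from 4, 1 and 7 UMIs. The fractions did not overlap in any of the 3 classes, and in CD45.1+ cells the level was lower at each step from E/A/M to LZ-like to DZ-like, without overlap.

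The log2 differences (CD45.2+ minus CD45.1+, recipient as block, edgeR quasi-likelihood test with Benjamini-Hochberg adjustment over all genes) were 1.41 ± 0.13 (SE, n = 3 recipients, adjusted p = 2.3e-08) in E/A/M, 3.32 ± 0.19 (adjusted p = 5.8e-12) in LZ-like and 4.27 ± 0.25 (adjusted p = 2.7e-19) in DZ-like cells. DESeq2 also called Bcl2 in E/A/M and LZ-like cells, but it gave no adjusted p for Bcl2 in DZ-like cells. In 1 fit over the 4 classes, the difference in LZ-like cells exceeded that in E/A/M cells by 1.92 log2 units (adjusted p = 0.0025) and that in DZ-like cells exceeded it by 2.92 (adjusted p = 4.0e-04). The LZ-like and DZ-like differences, 1.0 log2 unit apart, did not pass the test against each other (adjusted p = 0.80). Within the LZ2-like cluster alone the log2 difference was 4.07 ± 0.26 (adjusted p = 7.6e-16), and in the DZ-like clusters it was 3.98 to 4.88. A difference among the 4 classes at all was called for 18.3% of 9491 genes.

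**Figure D2:**
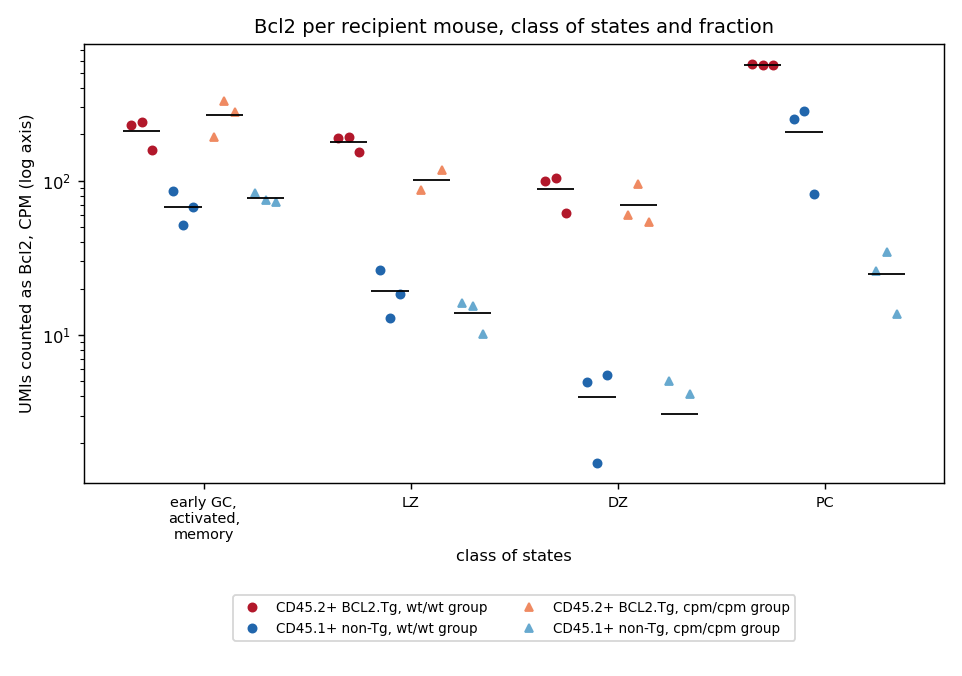
UMIs counted as Bcl2, in CPM on a log axis, by class of states (x axis), fraction and recipient group (colours and shapes); each point is 1 recipient with at least 10 cells and each bar a mean. The CD45.1+ points fall from early GC, activated and memory-like to DZ-like cells, where 1 recipient labelled Dock8 cpm/cpm is at 0 and not drawn, while CD45.2+ points stay at or above 53.7 CPM.

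PC-like cells had the highest Bcl2 levels in CD45.2+ cells, 572, 563 and 564 CPM, a spread far narrower than in the other classes. Their CD45.1+ counterparts were at 253, 282 and 82.0 CPM in the same recipients, but at 26.1, 34.3 and 13.8 CPM in the recipients labelled Dock8 cpm/cpm, a group difference that follows the shares of cells with a Bcl2 UMI given above. The log2 difference was 1.52 ± 0.20 (adjusted p = 1.1e-05), was not called by DESeq2 (adjusted p = 0.0647) and ranged from 0.93 to 1.93 when each recipient was left out, lowest without recipient 3. Within single clusters it was 1.58 ± 0.22 (adjusted p = 5.3e-05) and 0.92 ± 0.17 (adjusted p = 1.4e-04) in the larger PC2-like clusters, and 4.35 ± 0.24 (adjusted p = 1.3e-16) in the cycling PC-like cluster, whose CD45.1+ cells averaged 22 CPM. The PC-like difference exceeded the E/A/M difference by 0.13 (adjusted p = 0.84).

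Recipients labelled Dock8 cpm/cpm gave a second set of pairs, compared after the data were seen. There the log2 difference of Bcl2 was 1.59 ± 0.22 (adjusted p = 4.9e-07) in E/A/M cells and 3.51 ± 0.34 (adjusted p = 1.2e-07) in LZ-like and DZ-like cells summed. Called were 3 of 6 tested genes of the family in E/A/M cells, against 8.39% of all 4376 genes, and 1 of 8 in the sum, against 1.88% of all 7236. The CD45.2+ cells differ from the CD45.1+ cells by Dock8 as well in these recipients.

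To compare shares of cells across depths, each cell was thinned to 2000 UMIs, which left out 135 CD45.2+ and 120 CD45.1+ cells. In the Dock8 wt/wt recipients a Bcl2 UMI remained in 62.6% ± 2.73 (SD, n = 3) of CD45.2+ PC-like, 33.6% ± 5.87 of E/A/M, 27.8% ± 1.55 of LZ-like and 14.8% ± 4.47 of DZ-like cells. In CD45.1+ cells it was 23.1% ± 12.3, 10.27% ± 1.82, 4.48% ± 2.53 and 1.02% ± 0.974, in that order. T cells express Bcl2, and 36.6% ± 15.5 of the T cell-like cells of the CD45.2+ library had it. Without thinning the 4 CD45.2+ shares were 91.2, 65.5, 58.2 and 51.2%. Median UMIs per cell before thinning were 8178, 5759, 5308 and 10681 in these CD45.2+ classes and 10031, 5257.5, 3548 and 7058.5 in the CD45.1+ classes of all recipients, against 3279 in CD45.2+ T cell-like cells.

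Mcl1, which GC B cells need for survival, was lowest in DZ-like cells. Means in CD45.2+ cells were 417.5 ± 40.0 CPM (SD, n = 3) in E/A/M, 399 ± 39.7 in LZ-like, 387.5 ± 27.4 in PC-like and 296 ± 18.6 in DZ-like cells, and the first 3 overlapped. With immunoglobulin genes left out of the totals, PC-like cells were highest, at 609 ± 39.2 CPM against 433 in E/A/M, 410.3 in LZ-like and 304 in DZ-like cells, without overlap with these. In DZ-like cells the CD45.2+ fraction held 299, 313 and 276 CPM and the CD45.1+ fraction 347, 367 and 348 CPM, without overlap. Mcl1 fell there by 0.24 ± 0.07 on the log2 scale (adjusted p = 0.016). In PC-like cells, at 391, 413 and 359 CPM against 475, 440 and 375 CPM, each recipient was lower in CD45.2+ cells and the log2 difference was -0.28 ± 0.09 (adjusted p = 0.021). That call was lost with the CD45.1+ cells that held a Bcl2 UMI left out (-0.21 ± 0.11, adjusted p = 0.178). The DZ-like and PC-like calls were both lost without the replicate block (adjusted p = 0.0854 and 0.115) and by DESeq2 (0.14 and 0.0753). Each was also lost in 2 of 3 fits with 1 recipient left out, in DZ-like cells without recipient 1 or 3 (adjusted p = 0.0723 and 0.183). Hashtags normalized over each cell lost the DZ-like call too (0.355). Within the 3 DZ-like clusters Mcl1 gave -0.17 ± 0.09, -0.08 ± 0.11 and -0.40 ± 0.17 (adjusted p = 0.47, 0.83 and 0.34). E/A/M and LZ-like cells gave -0.09 ± 0.08 and -0.19 ± 0.09, which did not pass.

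The Bcl2a1 genes were distributed unlike Bcl2, with the highest levels in LZ-like and the lowest in PC-like cells. Bcl2a1b, the copy with most counts, was at 320, 260 and 369 CPM in CD45.2+ and 319, 332 and 358 CPM in CD45.1+ LZ-like cells. The fractions overlapped, with a log2 difference of -0.06 ± 0.10 (adjusted p = 0.81). The class was made up differently in the fractions: over all recipients its LZ1-like cluster held 284 CD45.2+ and 59 CD45.1+ cells and its LZ2-like cluster 527 and 1005. Within the LZ2-like cluster the Bcl2a1b difference was -0.32 ± 0.11 (adjusted p = 0.11), and the LZ1-like cluster had too few CD45.1+ cells for a test. LZ1-like cells, pooled over all recipients, held more Bcl2a1b, at 359 CPM (exact 95% interval 332 to 386, counting error only) in CD45.2+ and 452 CPM (384 to 529) in CD45.1+ cells, whereas E/A/M cells held 66.3 to 85.5 CPM in CD45.2+ and 74.5 to 88.6 CPM in CD45.1+ cells. Bcl2a1b stood in the study's marker lists of LZ states and was taken out of them before clusters were named.

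In DZ-like cells Bcl2a1b was lower in the CD45.2+ fraction. It was at 113, 104 and 126 CPM there and at 172, 136 and 176 CPM in CD45.1+ cells, without overlap. The log2 difference was -0.48 ± 0.09 (adjusted p = 2.1e-04), and -0.39 ± 0.09 (adjusted p = 0.00145) for the sum of the 3 Bcl2a1 genes. It kept its sign and its call when each recipient was left out (-0.52 to -0.42). Within the 3 DZ-like clusters the values were -0.58 ± 0.14 (adjusted p = 0.0017), -0.44 ± 0.16 (adjusted p = 0.16) and -0.42 ± 0.24 (adjusted p = 0.63). In E/A/M cells of the recipients labelled Dock8 cpm/cpm Bcl2a1b fell by 1.13 ± 0.30 on the log2 scale (adjusted p = 0.011), whereas in those of the Dock8 wt/wt recipients the value was -0.18 ± 0.13 (adjusted p = 0.55).

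PC-like cells went the other way, at low levels. Bcl2a1b was at 36.1, 25.8 and 13.9 CPM in CD45.2+ and 14.5, 10.6 and 3.57 CPM in CD45.1+ cells, higher in CD45.2+ cells of each recipient. The log2 difference was 1.38 ± 0.23 (adjusted p = 1.4e-04), and it exceeded that in DZ-like cells by 1.81 (adjusted p = 1.0e-07). Leaving out the CD45.1+ cells with a Bcl2 UMI gave 1.30 ± 0.28 (adjusted p = 0.0011), and leaving out the cells with the highest doublet scores gave 0.84 ± 0.27 (adjusted p = 0.028). Within the 2 larger PC2-like clusters, which hold cells of both fractions, the values were 1.55 ± 0.35 (adjusted p = 0.0049) and 1.59 ± 0.51 (adjusted p = 0.032). The cycling PC-like cluster, with 103 CD45.2+ and 127 CD45.1+ cells, gave 0.53 ± 0.59 (adjusted p = 0.73).

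Bcl2a1d followed Bcl2a1b in PC-like cells, with 20, 24 and 14 UMIs in CD45.2+ and 0, 1 and 2 UMIs in CD45.1+ cells. Over the 3 recipients this was a ratio of CPM of 8.05 (exact 95% interval 2.62 to 40.2, counting error only), with an adjusted p of 0.0085. Without the CD45.1+ cells that held a Bcl2 UMI the log2 difference was 2.31 ± 0.74 (adjusted p = 0.025). In LZ-like cells it was at 74.4, 64.7 and 88.4 CPM against 69.5, 37.3 and 56.9 CPM, higher in CD45.2+ cells of each recipient though the ranges overlapped. That log2 difference, 0.59 ± 0.17 (adjusted p = 0.038), was lost by DESeq2 and without the replicate block, and the sum of the 3 genes gave 0.05 ± 0.10 (adjusted p = 0.83). Within the LZ2-like cluster it was 0.12 ± 0.23 (adjusted p = 0.87), and pooled LZ1-like cells, a larger part of the CD45.2+ class, held 112.5 CPM in CD45.2+ and 75.4 CPM in CD45.1+ cells. Bcl2a1a stayed at or below 9.32 CPM in every class and recipient of the Dock8 wt/wt group and passed the filter on low counts only in all B-lineage cells together (-0.49 ± 0.41, adjusted p = 0.46).

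Bcl2l1, which encodes BCL-XL, was low throughout. Means in CD45.2+ cells were 14.3 ± 1.37 CPM in PC-like, 8.96 ± 2.13 in LZ-like, 7.99 ± 0.952 in DZ-like and 3.82 ± 0.428 in E/A/M cells, and the LZ-like and DZ-like ranges overlapped. No difference between the fractions was called, with -0.22 ± 0.25 in PC-like, 0.30 ± 0.38 in DZ-like and 1.27 ± 0.78 in E/A/M cells, the last on 4 UMIs in the CD45.1+ cells. It was not tested in LZ-like cells, where its counts did not pass the filter.

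**Figure D3:**
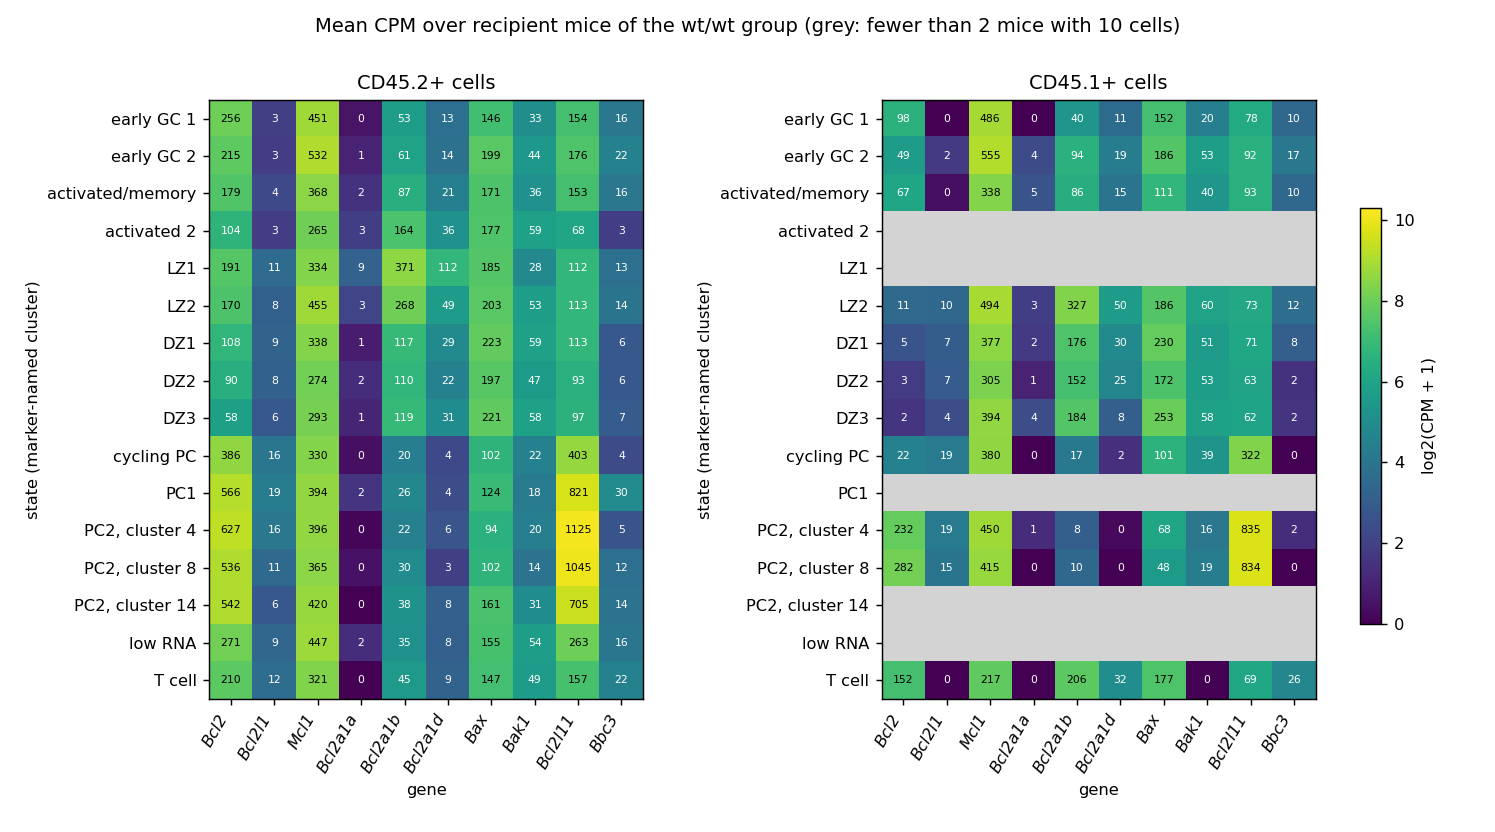
Mean CPM over recipients of the Dock8 wt/wt group for the 10 genes (columns) in each marker-named state (rows), CD45.2+ cells on the left and CD45.1+ cells on the right; colour is log2(CPM + 1), and grey marks states with fewer than 2 recipients of 10 cells. Read down a column, since 3′ counts do not compare genes: Bcl2l11 and Bcl2 peak in the PC rows and Bcl2a1b in the LZ rows.

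The effectors Bax and Bak1 were highest in DZ-like and lowest in PC-like cells of the CD45.2+ fraction. Bax means in CD45.2+ cells were 209 ± 3.97 CPM in DZ-like, 196.5 ± 7.81 in LZ-like, 167 ± 15.0 in E/A/M and 104 ± 1.2 in PC-like cells. In these CPM of all UMIs the classes did not overlap. In DZ-like cells the fractions overlapped, at 213, 210.1 and 205 CPM against 212, 193 and 225 CPM, with a log2 difference of 0.00 ± 0.08 (adjusted p = 0.998).

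In PC-like cells Bax was at 105, 104 and 103 CPM in CD45.2+ and 66.8, 72.5 and 79.6 CPM in CD45.1+ cells, without overlap. The log2 difference was 0.34 ± 0.11 (adjusted p = 0.029), and 0.43 ± 0.14 (adjusted p = 0.030) without the CD45.1+ cells that held a Bcl2 UMI. Within single clusters it was 0.34 ± 0.14 (adjusted p = 0.115) and 0.84 ± 0.24 (adjusted p = 0.013) in the larger PC2-like clusters and -0.01 ± 0.20 (adjusted p = 0.99) in the cycling PC-like cluster. Without the replicate block the adjusted p was 0.0748, and by DESeq2 it was 0.33. Immunoglobulin genes took 36.1 to 37.6% of the UMIs of PC-like cells in these recipients. With them left out of the totals, Bax was at 163 ± 1.07 CPM in CD45.2+ PC-like and 173 ± 15.9 in E/A/M cells. LZ-like and DZ-like cells were then at 202 ± 7.56 and 215 ± 4.39 CPM. Most of the Bax gap between PC-like and E/A/M cells is thus a matter of the total.

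Bak1 was at 52.8 ± 4.37 CPM in CD45.2+ DZ-like, 38.9 ± 5.18 in LZ-like, 38.0 ± 2.30 in E/A/M and 19.3 ± 1.10 in PC-like cells. No comparison of the fractions called it. The nearest was in LZ-like cells, at 34.7, 37.3 and 44.7 CPM against 40.7, 63.2 and 65.4 CPM, where the log2 difference of -0.53 ± 0.19 had an adjusted p of 0.089.

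Bcl2l11, which encodes the BH3-only protein BIM, was higher in CD45.2+ cells in each of the 4 classes. Its means in CD45.2+ cells were 943 ± 107 CPM in PC-like, 157 ± 8.79 in E/A/M, 111.5 ± 19.4 in LZ-like and 100.1 ± 18.7 in DZ-like cells, and the last 2 overlapped. Bcl2l11 also stood in the study's list for a PC state and was taken out of it before clusters were named. Thinned to 2000 UMIs, 68.9% ± 5.02 of CD45.2+ and 59.5% ± 7.49 of CD45.1+ PC-like cells had a Bcl2l11 UMI. In T cell-like cells of these recipients it was 24.5% ± 5.47 in the CD45.2+ and 6.25% ± 8.84 (n = 2) in the CD45.1+ library. Their Bcl2l11 levels were 157 ± 77.6 and 68.8 ± 39.6 CPM, from 36 and 5 UMIs, with overlap. Immunoglobulin genes took 1.88 to 2.73% of the UMIs of these CD45.2+ and 0.21 to 0.519% of these CD45.1+ T cell-like cells. Whether plasma cell RNA counted in other cells had a part in the Bcl2l11 differences was not tested.

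Bcl2l11 in E/A/M cells was at 162, 161 and 147 CPM in CD45.2+ and 83.4, 88.5 and 91.1 CPM in CD45.1+ cells. In DZ-like cells it was at 96.6, 83.5 and 120 CPM against 65.7, 47.2 and 88.04 CPM, and in LZ-like cells at 134, 101 and 99.8 CPM against 52.7, 47.4 and 112 CPM. The E/A/M fractions did not overlap, whereas recipient 3 broke the order in LZ-like cells and the DZ-like ranges overlapped although each recipient was higher in CD45.2+ cells. Log2 differences were 0.72 ± 0.12 (adjusted p = 1.5e-04) in E/A/M, 0.58 ± 0.12 (adjusted p = 4.7e-04) in DZ-like and 0.68 ± 0.19 (adjusted p = 0.031) in LZ-like cells. Without the replicate block the DZ-like and LZ-like calls were lost (adjusted p = 0.06 and 0.106). Leaving out 1 recipient moved the LZ-like value between 0.44 and 1.24, lowest without recipient 1 and highest without recipient 3, and the call was lost without recipient 1 or 2 (adjusted p = 0.137 and 0.284).

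The recipients labelled Dock8 cpm/cpm gave 1.32 ± 0.25 (adjusted p = 1.9e-04) for Bcl2l11 in E/A/M cells and 0.65 ± 0.22 (adjusted p = 0.15) in LZ-like and DZ-like cells summed. In E/A/M cells the levels were 210.2, 132 and 192 CPM in CD45.2+ and 64.6, 64.2 and 58.6 CPM in CD45.1+ cells, without overlap. Among the 10 single clusters tested in the Dock8 wt/wt recipients, which share their animals, the Bcl2l11 difference was above 0 in 10, from 0.26 to 0.93.

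In PC-like cells Bcl2l11 was at 1028, 823 and 977 CPM in CD45.2+ and 611, 685 and 813 CPM in CD45.1+ cells. The log2 difference of 0.27 ± 0.10 (adjusted p = 0.048) fell to 0.09 (adjusted p = 0.548) without recipient 1 and was lost under 5 other alternatives. With the CD45.1+ cells that held a Bcl2 UMI left out it was 0.60 ± 0.12 (adjusted p = 4.6e-04). The difference in Bcl2l11 among the 4 classes did not pass the test (adjusted p = 0.104).

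Across all B-lineage cells together Bcl2l11 was not called. Its log2 difference was -0.02 ± 0.10 (adjusted p = 0.94), and with PC-like cells left out, a fit added after the data were seen, it was 0.81 ± 0.12 (adjusted p = 0.0039). PC-like cells made up 18.4 to 25.9% of CD45.2+ and 19.5 to 32.4% of CD45.1+ cells of the Dock8 wt/wt recipients, and E/A/M cells 35.6 to 52.2% and 15.4 to 29.0%.

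Bbc3, which encodes PUMA, was low and changed in PC-like cells. It was at 13.4, 13.2 and 6.60 CPM in CD45.2+ and 2.91, 0.755 and 0.891 CPM in CD45.1+ PC-like cells, from 43, 70 and 29 UMIs against 2, 1 and 3. The fractions did not overlap, and the log2 difference was 2.84 ± 0.45 (adjusted p = 7.4e-05). Without the CD45.1+ cells that held a Bcl2 UMI it was 3.1 ± 0.55 (adjusted p = 1.6e-04). Among CD45.2+ states Bbc3 was highest in the PC1-like cluster, at 30 CPM, and 227 of the 248 cells of that cluster were CD45.2+. Both larger PC2-like clusters had too few counts for a test. E/A/M cells, at 18.5, 18.5 and 12.1 CPM against 20.3, 6.99 and 2.46 CPM, gave 0.96 ± 0.38 (adjusted p = 0.19).

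**Figure D4:**
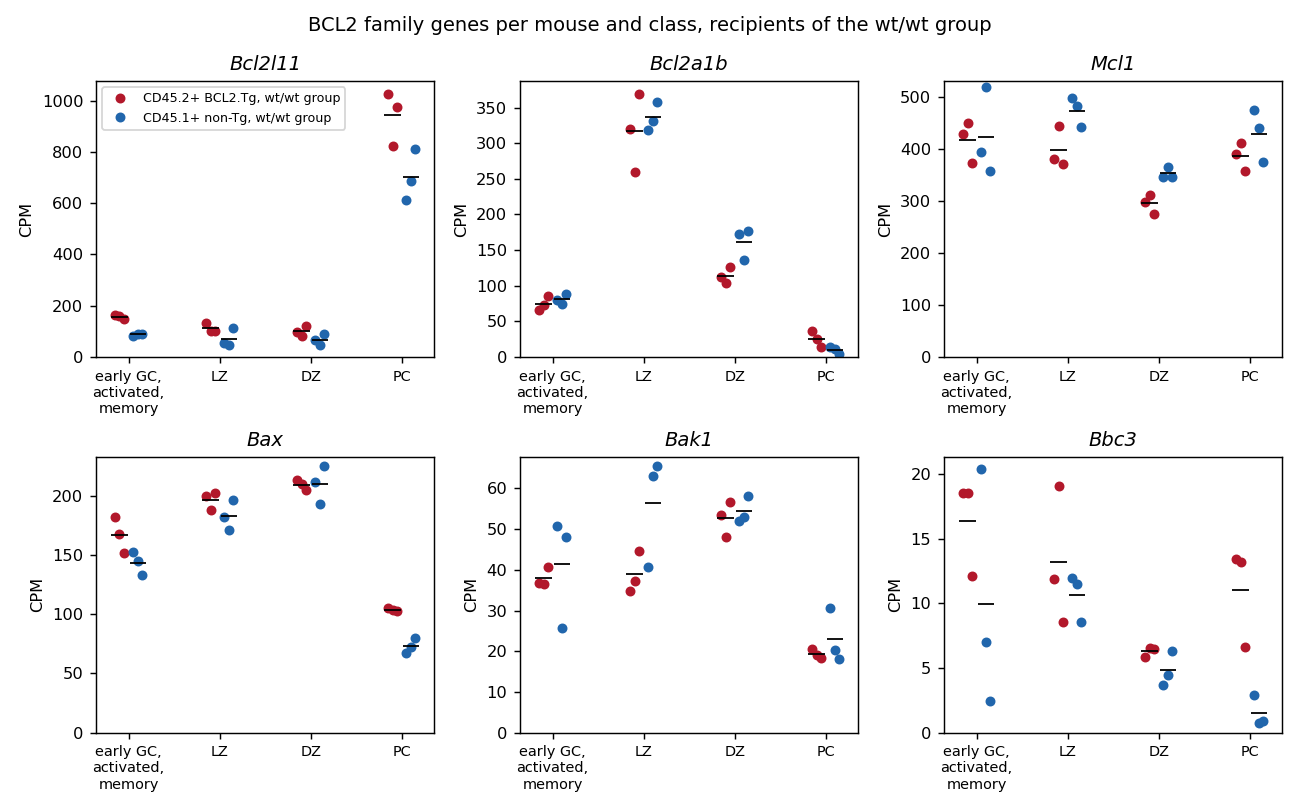
CPM (y axis, a scale of its own in each panel) of Bcl2l11, Bcl2a1b, Mcl1, Bax, Bak1 and Bbc3 by class (x axis) and fraction (colour) in the Dock8 wt/wt group; each point is 1 recipient and each bar a mean. Bcl2l11 points of CD45.2+ cells lie above those of CD45.1+ cells of the same recipient in the E/A/M, DZ and PC classes, and the fractions overlap for Bak1 in every class.

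Counted together, the fractions of the Dock8 wt/wt recipients differed in 2 of 9 tested genes of the family in E/A/M cells, both higher in CD45.2+ cells, where 4.31% of all 9451 genes tested were called. LZ-like cells gave 3 of 8, all higher, against 7.16% of 7348 genes, and DZ-like cells 4 of 9, 2 higher and 2 lower, against 5.87% of 9475. PC-like cells gave 7 of 9, 6 higher and 1 lower, against 23.3% of 9128 genes, and all B-lineage cells 4 of 10, 2 in each direction, against 17.6% of 11292. The median log2 difference of the family ranged from -0.10 in all B-lineage cells to 0.34 in PC-like cells, and that of all genes from -0.01 to 0.03. With the CD45.1+ cells that held a Bcl2 UMI left out of the PC class, 5 genes of the family other than Bcl2, which chose those cells, were called, against 22.1% of 9124 genes, and Mcl1 was the call lost. With PC-like cells left out of the B-lineage sum, 3 of 10 were called, against 3.41% of 10712.

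**Figure D5:**
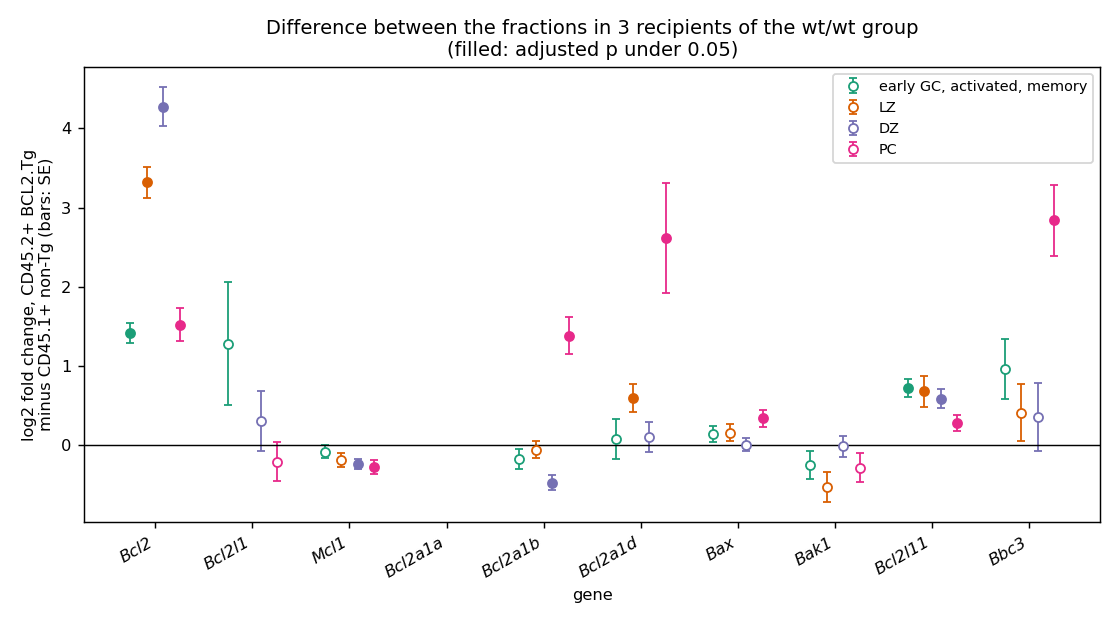
Log2 difference (CD45.2+ minus CD45.1+) of each gene in each class of the Dock8 wt/wt recipients, with bars of 1 standard error; genes are on the x axis, filled points have an adjusted p under 0.05, and Bcl2a1a was not tested in these classes. Bcl2 is above 1 in every class, Bcl2l11 is above 0 in the 4 single classes, and the Bcl2a1b points lie on both sides of 0.

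The PC comparison rests on cells that differed in more than the family. The B cell markers Cd79a (log2 difference 1.04 ± 0.10), Cd79b (0.48 ± 0.08), Ms4a1 (2.31 ± 0.11) and Pax5 (4.46 ± 0.33) were higher in CD45.2+ PC-like cells, as were the GC markers Bcl6 (4.32 ± 0.49), Fas (0.97 ± 0.23) and Mef2b (1.46 ± 0.21), while the plasma cell markers Sdc1 and Xbp1 were lower. The PC1-like cluster and the smallest PC2-like cluster, with 168 of 182 cells CD45.2+, had fewer than 10 CD45.1+ cells in most recipients. The part of this in the differences of Bbc3, Bax and the Bcl2a1 genes was not tested, beyond the values of Bax and Bcl2a1b within single clusters given above. Plasma cell markers moved in the other classes too: Jchain and Xbp1 were higher in CD45.2+ E/A/M and DZ-like cells and Jchain in LZ-like cells.

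None of these genes was called between the CD45.2+ cells of the recipient groups, which were labelled by Dock8 genotype. Comparing CD45.2+ cells of the recipients labelled Dock8 cpm/cpm with those of the Dock8 wt/wt recipients, 0 of 9 tested genes were called in LZ-like and DZ-like cells summed, where 0.0106% of 9415 genes were (1 gene; 553 at an unadjusted p under 0.05), and 0 of 8 in E/A/M cells, where 0.273% of 8778 were. The log2 differences of Bcl2 were -0.33 ± 0.26 and 0.18 ± 0.18, those of Bcl2l11 -0.26 ± 0.20 and 0.02 ± 0.17 and those of Mcl1 -0.09 ± 0.14 and -0.17 ± 0.14. Bbc3 was furthest from 0 in LZ-like and DZ-like cells, with 1.0 ± 0.49 (adjusted p = 0.84, edgeR), and gave -0.90 ± 0.63 in E/A/M cells. In the recipients labelled Dock8 cpm/cpm, these tests held 17 to 47 CD45.2+ E/A/M cells per recipient. Their LZ-like and DZ-like cells, summed for the test, were 8 to 21 and 11 to 21 per recipient. At this depth even the 1.0 log2 unit of Bbc3 did not pass, so that differences of such a size may have gone undetected. These sums also held the mixed sex-linked transcripts given above, and whether all their cells were Dock8 cpm/cpm was not tested.

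The CD45.1+ cells, which were Dock8 wt/wt in both groups, were compared between the recipient groups in the same classes, and not in PC-like cells, where the Bcl2 levels given above lay apart. Called were 0 of 9 in LZ-like and DZ-like cells summed and 0 of 6 in E/A/M cells, where edgeR called 0% of all 8152 and 0% of all 4515 genes, with 349 and 180 at an unadjusted p under 0.05. DESeq2 called 0 of the family in both as well. Bcl2l11 levels in CD45.1+ E/A/M cells, given above, did not overlap between the groups, with a log2 difference of -0.51 ± 0.19 (Dock8 cpm/cpm minus Dock8 wt/wt recipients, adjusted p = 0.9987). In CD45.1+ PC-like cells Bcl2l11 was at 453, 554 and 407 CPM in the recipients labelled Dock8 cpm/cpm, below the 611 to 813 CPM of the Dock8 wt/wt recipients. The difference of the fractions, compared between the recipient groups by an interaction term, was called for 0 of 9 genes of the family and for 0.0112% of 8925 genes, with an interaction of 0.06 ± 0.41 for Bcl2 and 0.05 ± 0.24 for Bcl2l11.

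The wider death pathways were read from lists of genes grouped by function, in the Dock8 wt/wt recipients. Their counts stand against 4.31% of all genes called in E/A/M, 7.16% in LZ-like, 5.87% in DZ-like and 23.3% in PC-like cells. Of the other BCL2 family genes, 10 in the list, 3 to 5 had enough counts in a class. The BH3-only gene Bad was lower in CD45.2+ DZ-like (-0.41 ± 0.12, adjusted p = 0.038) and LZ-like cells (-0.67 ± 0.18, adjusted p = 0.021), and Bmf, another BH3-only gene, was lower in LZ-like (-1.04 ± 0.30, adjusted p = 0.033) and higher in PC-like cells (1.46 ± 0.48, adjusted p = 0.031). Bid, which links death receptors to mitochondria, was higher in PC-like cells (0.84 ± 0.24, adjusted p = 0.014). In E/A/M cells 0 of 5 were called.

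The apoptosome and caspase list, which acts after the mitochondrial step, had 0 of 12 genes called in E/A/M, 0 of 11 in LZ-like and 0 of 12 in DZ-like cells. In PC-like cells Apaf1, the scaffold of the apoptosome (0.91 ± 0.32), the initiator Casp9 (1.16 ± 0.41) and the caspase inhibitor Xiap (0.64 ± 0.15) were higher, and cytochrome c, Cycs (-0.60 ± 0.10), was lower. Of the death receptor list, 2 of 6 were called in PC-like cells, Fas higher (0.97 ± 0.23) and Bag1 lower (-0.44 ± 0.11), where 23.3% of all genes were called, and 0 of 6 in each of the other classes.

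Genes of the NF-κB list, whose pathway is known to act on Bcl2a1, were called in PC-like and DZ-like cells. In PC-like cells 6 of 11 were higher in CD45.2+ cells, among them Rel (1.83 ± 0.26, adjusted p = 2.1e-05), Relb (1.48 ± 0.33) and the feedback inhibitor Tnfaip3 (1.51 ± 0.53), with a list median of 0.66, where 23.3% of all genes were called. In DZ-like cells Rel (-0.34 ± 0.09, adjusted p = 0.014) and Traf1 (-0.41 ± 0.13, adjusted p = 0.039) were lower, 2 of 11, with a list median of -0.26, where 5.87% of all genes were called. E/A/M and LZ-like cells had 0 of 11 called.

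In the FOXO list, whose transcription factors are known to act on Bcl2l11 and Bbc3, Klf2, a quiescence factor, was higher in CD45.2+ DZ-like (1.83 ± 0.16), LZ-like (0.96 ± 0.12) and PC-like cells (3.19 ± 0.21) and lower in E/A/M cells (-0.38 ± 0.06). Sesn1, a stress-induced regulator of growth signalling, was higher in LZ-like (0.94 ± 0.24) and PC-like cells (1.22 ± 0.22), and Foxo1 in PC-like cells (0.64 ± 0.15). Of the p53 list, which holds regulators of Bax and Bbc3, only Trp53inp1, a p53-induced gene of autophagy and death, was called in E/A/M (0.90 ± 0.15, adjusted p = 2.3e-04, 1 of 7), LZ-like (0.79 ± 0.19, 1 of 6) and DZ-like cells (0.56 ± 0.15, 1 of 6), each time higher, and in PC-like cells only Ccng1 (-0.46 ± 0.16, 1 of 6), lower. Trp53inp1 also stood in the study's marker list for a PC state. Its relation to the plasma cell markers that moved in these classes was not tested.

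Likeness of pattern was read over 26 combinations of state and fraction with at least 50 cells each, both recipient groups pooled. It was Pearson's r of log2(CPM + 10), taken against 7741 genes. This is a description, since the points share 2 libraries and 6 animals. Bcl2a1b and Bcl2a1d were most like each other (r = 0.971), and next to Bcl2a1d came Mir155hg (0.943), the host transcript of miR-155. Bax was most like Mitd1 (0.957) and Trp53 (0.951), and Bak1 most like Myl6 (0.948). Bcl2l11 was most like Laptm4a (0.965) and Trp53inp1 (0.965), Bbc3 most like Foxj2 (0.860) and Bcl2 most like Calcoco1 (0.861). Mcl1 had the weakest partner of these genes, Akap9 (0.780). Within the family Bcl2l11 ran with Bcl2 (0.70) and against Bcl2a1b (-0.82), Bak1 (-0.82) and Bax (-0.79). Bcl2l1 and Bcl2a1a did not reach the level of 20 CPM set for this reading.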

How the data were processed

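The authors deposited, for each sorted fraction, UMI counts per gene and barcode and hashtag counts per barcode, without normalization; the submitters' processing notes name Cell Ranger 5.0.1 and Seurat 4.0, with mm10 as the build. Hashtags were assigned with HTODemux (Seurat 5.3.0, R 4.3.3, quantile 0.99). Singlets under 10% mitochondrial counts with 100 to 5500 genes, the thresholds the study states, were kept: 6488 of 24241 CD45.2+ and 3204 of 5232 CD45.1+ barcodes. These are far fewer CD45.2+ and slightly more CD45.1+ cells than the study states after its filter, and the study's own assignment of cells was not used here. Scrublet called 4 and 5 of these cells, too few to have worked, so the highest scores were left out as an alternative (389 and 192 cells). Cells were clustered with sctransform 0.4.2 (3000 variable genes without the BCL2 family and sex-linked genes, 30 components, Louvain 0.9).

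Counts were summed per recipient, fraction and class (at least 10 cells) and tested with edgeR 4.0.16 (TMM, filterByExpr, quasi-likelihood test, Benjamini-Hochberg over all genes, threshold 0.05). The recipient was a block between fractions, since hashtags show that both came from 1 animal. CPM is per 1000000 UMIs of the sum. The 10 genes and the lists were chosen with earlier results of these data known. Named genes are these 10 and called genes of the lists, some of which are not reported here. The tests were tested on simulated data. Alternatives were DESeq2 1.42.0, no count filter, immunoglobulin genes left out, 2 other hashtag rules, a stricter cell filter, doublet scores, resolution 1.2, each recipient left out, no block and summed Bcl2a1 genes. Chosen after seeing the data were the fits without CD45.1+ PC-like cells with a Bcl2 UMI, without PC-like cells, in single clusters, in the recipients labelled Dock8 cpm/cpm, and over 4 classes at once.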

Additional observations from a re-analysis of the deposited data

Results flagged for a closer look

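The difference between the CD45.2+ and CD45.1+ cells differed among the 4 classes for 4 of the 10 genes, by a test in 1 edgeR fit over E/A/M, LZ-like, DZ-like and PC-like cells of the Dock8 wt/wt recipients, with Benjamini-Hochberg adjustment over all 9491 genes. For Bcl2a1b the adjusted p was 1.253e-06, with a difference in PC-like cells that exceeded that in E/A/M cells by 1.58 log2 units. For Bcl2 it was 2.027e-06, with a log2 difference in DZ-like cells that exceeded that in PC-like cells (PC minus DZ, -2.79). For Bcl2a1d it was 0.01654 and for Bbc3 0.01761, where PC-like exceeded DZ-like cells by 2.46 and 2.45 log2 units. The fit was added after the data were seen, and 18.3% of the genes tested passed it. It held all CD45.1+ PC-like cells of these recipients, of which 13.4 to 39% per recipient held a Bcl2 UMI. It was not run without the latter. The other 5 genes tested did not pass, with adjusted p from 0.1041 for Bcl2l11 to 0.6945 for Mcl1.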

How the results depend on the processing

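Of the counts of called genes, those in E/A/M cells and those of the Dock8 comparisons and the interaction stayed within 1.5 times under every alternative run, the latter 2 at 0. DESeq2 called 1 gene of the family in LZ-like cells in place of 3, 2 in DZ-like in place of 4 and 2 in PC-like in place of 7. Bcl2 was not among its DZ-like calls, as it had no adjusted p there. Without the replicate block the counts were 1, 2 and 4, and the block changed no call of Bcl2 or, in PC-like cells, of Bcl2a1b, Bcl2a1d and Bbc3. Leaving out 1 recipient gave 2 to 4 called in all B-lineage cells (2 without Dock8 wt/wt recipient 2), 2 to 3 in E/A/M, 1 to 2 in LZ-like (1 without recipient 2), 3 to 4 in DZ-like and 4 to 7 in PC-like cells (4 without recipient 1). With immunoglobulin genes left out of the CPM, 5 of the 10 genes rather than 3 had their highest CD45.2+ level in PC-like cells. For single called genes, 44 alternative values kept their direction but missed the threshold, 220 kept their call and 0 changed direction. The values that missed it fell mostly on Mcl1, Bax, Bcl2l11 in LZ-like and PC-like cells and Bcl2a1d in LZ-like cells. The cause was not tested. Alternatives without an adjusted p, such as DESeq2 for Bcl2 in DZ-like cells, are not in these counts. Hashtags normalized over each cell gave no value for CD45.1+ E/A/M cells between the groups. Few CD45.2+ cells of the recipients labelled Dock8 cpm/cpm, 44 to 101 per recipient over all classes and fewer in each class tested, limit the Dock8 comparisons. Whether all of these cells were Dock8 cpm/cpm was not tested either.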
